A study of Oreochromis niloticus with 6 samples.

Results

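Glycolysis splits glucose into pyruvate in the cytosol, and each of its steps is carried out by an enzyme with 1 or more gene copies in fish. A kinase traps glucose, the upper steps prepare and cleave the sugar, and the lower steps yield ATP and end in pyruvate, which lactate dehydrogenase can reduce to lactate. In the liver most of these enzymes work in both directions, so that the same transcripts serve glucose breakdown and glucose synthesis. The glucose-trapping kinase, phosphofructokinase and pyruvate kinase run in the direction of breakdown only.

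The glycolytic enzymes described here were 19 gene IDs of 26490 in the mRNA table, taken by gene name, among them gpia, gpib, pfkla, aldoaa, aldoca, aldocb, tpi1a, tpi1b, gapdh, gapdhs, pgk1, eno1a, eno1b, eno3, pklr, ldha and ldhbb. The livers came from Nile tilapia (Oreochromis niloticus), juvenile males with the genotype given as WT, of the farmed line GIFT that is bred for growth. One group had been fed feed with 18.5% lipid, called HFD for high-fat diet, and the other feed with 8% lipid, called NFD for normal-fat diet. Feeding lasted 56 days in both, and each diet had 3 libraries. Per the labels' protocols, RNA of 3 samples per group was mixed, and the labels do not say whether each library was a mixture of its own. The p-values below therefore set the diet difference against the spread among libraries, and that spread may be technical in part or in whole. They may not extend to differences among fish. Phosphoglycerate mutase pgam1, the enzyme between phosphoglycerate kinase and enolase, was not analysed here. No gene ID carried the names pfklb, aldoab or ldhba, so these copies were not analysed either.

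Values are FPKM, fragments scaled to transcript length and to the library's mapped fragments, so levels of different genes can be set side by side. The mRNA table summed to between 141024 and 170847 FPKM in HFD libraries and between 142360 and 169081 FPKM in NFD libraries, and the depth in reads is unknown. Of the 12 gene IDs in a list of hepatocyte markers, 11 were above 0 in every library. The list summed to between 953 and 1285 FPKM in HFD and between 1183 and 5359 FPKM in NFD, with 3 of its 9 tested gene IDs above 0 in log2 fold change and 6 below. Ambp, a plasma protein precursor, was at 771 to 848 FPKM in HFD and 721 to 990 FPKM in NFD, whereas the fibrinogen chain fgb was at 0.958, 1.18 and 1.03 FPKM in HFD and 3857, 0.835 and 3101 FPKM in NFD (limma unadjusted p = 0.0497, adjusted p = 0.827); both are named after their values were seen. Exocrine pancreas markers summed to between 4227 and 16194 FPKM in HFD and between 3600 and 15328 FPKM in NFD, highest in HFD replicate 3 and NFD replicate 1. The summed level of each of the 7 marker lists (hepatocyte, exocrine and endocrine pancreas, erythrocyte, skeletal muscle, macrophage and granulocyte, endothelial) overlapped between the diets. Log2 fold changes were above 0 for 7 of 8 tested exocrine, 2 of 2 endocrine and 5 of 5 endothelial gene IDs. The counts were 1 of 2 for erythrocyte, 1 of 4 for macrophage and granulocyte and 0 of 1 for skeletal muscle, against 50.4% of all tested genes. The endocrine genes gcgb and ins missed the filter and did not overlap, with ins at 0 in every NFD library. They are named after their values were seen. The part of these lists in the results below was not tested. In such bulk tissue, fewer cells of a type and less RNA per cell cannot be told apart.

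The comparison of HFD with NFD asks whether transcripts of the glycolytic enzymes differ between livers of fish on the high-fat and the normal-fat diet. No member passed. Of the 13 members tested, those with at least 0.5 FPKM in at least 3 of the 6 libraries, 0 had an adjusted p under 0.05 in limma (Benjamini-Hochberg over 9204 genes), where 0% of all tested genes did, and the smallest adjusted p among the members was 0.763. Only pgk1, higher in HFD, and eno1a, lower in HFD, had an unadjusted p under 0.05, which makes 2 members of 13 against 6.02% of all tested genes. The same 2 members had libraries that did not overlap between the diets, which 11.6% of all tested genes had: 5.48% with all HFD libraries above and 6.15% with all HFD libraries below the NFD libraries. Of the 13, 7 had a log2 fold change above 0 and 6 below 0, with a median of 0.07, against a median of 0.0031 over all genes and 50.4% of them above 0. Since a member could pass the filter through the diet in which it was higher, these counts are descriptions.

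**Figure D1:**
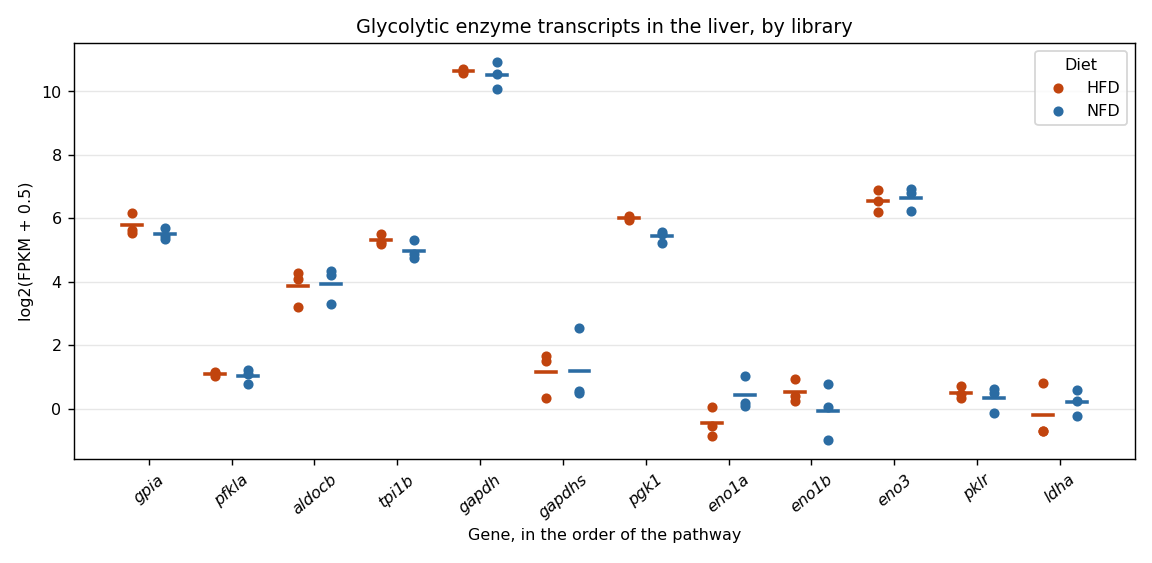
FPKM on a log2(FPKM + 0.5) scale (vertical axis) for 12 members with a mean of at least 0.5 FPKM, in pathway order (horizontal axis); points are libraries and short lines are means, with HFD left of NFD for each gene. Levels span from gapdh, at 1084 FPKM or more in every library, to genes near 0.5 FPKM such as ldha, and in pgk1 the 3 HFD points lie above the 3 NFD points.

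The members spanned a wide range of levels. Gapdh, which reduces NAD while oxidising a triose phosphate, made up 84.9% ± 1.49 of the summed FPKM of the members in HFD and 84.9% ± 1.77 in NFD (SD of 3 libraries). Its mean over the 6 libraries lay at the percentile of 99.8 among tested genes. Eno3, the muscle enolase of mammals, was next at a mean of 98.2 FPKM, below gapdh and above pgk1 in each of the 6 libraries. Pgk1 and gpia followed at means of 53.2 and 50.1 FPKM, and their order switched between libraries, with pgk1 the higher in 3 of 6. Tpi1b had a mean of 35.6 FPKM and lay under gpia in each library, though the ranges overlapped. The aldolase aldocb had a mean of 15.1 FPKM, below tpi1b in each library. Gapdhs and pfkla, at 2.16 and 1.61 FPKM, were not ordered alike across libraries either, and below them the pklr gene ID, eno1b, eno1a and ldha all had means between 0.583 and 0.856 FPKM with each neighbour's range overlapping the next. Another 5 members were at or near 0: aldoca was listed at 0 in all 6 libraries, and aldoaa, tpi1a, ldhbb and gpib reached at most 0.0747 FPKM in any library.

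For the enolase and both isomerase steps 1 gene copy carried nearly all of the signal. Eno3 held 98.8% ± 0.354 of the enolase FPKM in HFD and 98.4% ± 1.12 in NFD, over eno1a and eno1b. Gpia stood at 45.5 FPKM or more in HFD and 39.8 FPKM or more in NFD while its duplicate gpib was above 0 in 1 library only, NFD replicate 2. Likewise tpi1b carried the triose phosphate isomerase signal, with tpi1a above 0 in 2 libraries. Of the copies of aldolase C, known from mammalian brain, aldocb carried the signal, with aldoca at 0. How the authors' counting divided reads between near-identical copies is not given in the sources used here, so values of duplicates are uncertain to that extent.

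The liver-type copy of phosphofructokinase, an irreversible early step, was low in both diets, and the higher muscle-type copy is described further below. The liver-type phosphofructokinase pfkla (MSTRG.13639) was the steadiest member, at 1.74, 1.56 and 1.66 FPKM in HFD and 1.62, 1.84 and 1.23 FPKM in NFD. Its log2 fold change was 0.07 ± 0.18 (SE), with a 95% interval from -0.36 to 0.51 that leaves room for a difference either way.

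Among the other upper steps, the glucose phosphate isomerase gpia and the triose phosphate isomerase tpi1b had higher means in HFD, and the aldolase aldocb varied within both diets. Gpia (MSTRG.33201) was at 49.0, 71.8 and 45.5 FPKM in HFD and 39.8, 51.2 and 43.3 FPKM in NFD. Tpi1b (MSTRG.18465), which interconverts the triose phosphates, was at 36.0, 38.0 and 45.0 FPKM in HFD and 28.9, 39.6 and 26.3 FPKM in NFD. In both genes each HFD library lay above the NFD mean, but the diets overlapped because of NFD replicate 2. Their log2 fold changes were 0.28 ± 0.25 and 0.34 ± 0.23 (SE), with an adjusted p in limma of 0.919 for both.

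Aldocb (MSTRG.12887) was at 18.8, 8.75 and 16.5 FPKM in HFD and 17.9, 19.7 and 9.22 FPKM in NFD, so that its low values fell in HFD replicate 2 and NFD replicate 3. The low libraries of the 2 diets were alike in level and so were the high ones, with a log2 fold change of -0.08 ± 0.41 (SE, limma adjusted p = 0.991). Its sign changed with the omission of HFD replicate 2, NFD replicate 1 or NFD replicate 2.

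**Figure D2:**
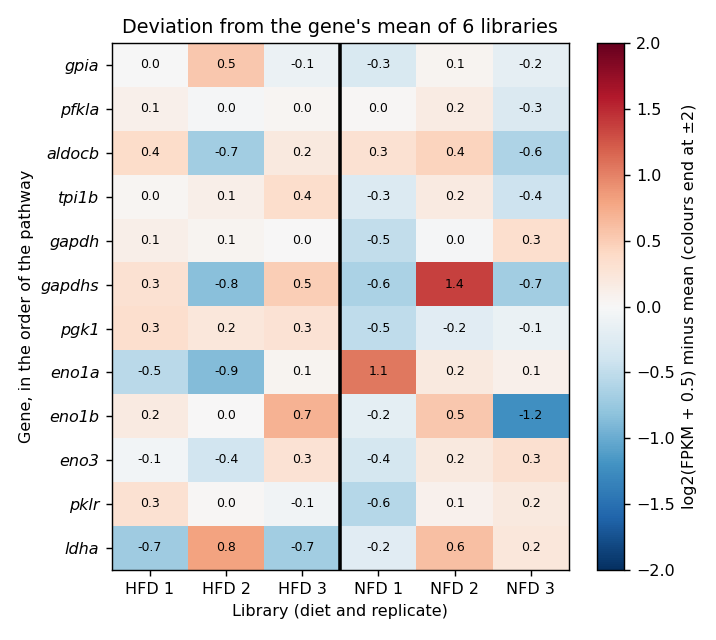
Each of 12 tested members (rows, in pathway order) in each library (columns, HFD left of the line and NFD right of it), as log2(FPKM + 0.5) minus the gene's mean over the 6 libraries; red is above and blue below that mean. Gapdhs shows a deep red in NFD replicate 2 and eno1b a deep blue in NFD replicate 3, while the pgk1 row is red in the 3 HFD columns and blue in the 3 NFD columns.

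In the lower steps, the libraries of pgk1 did not overlap between diets, while those of gapdh, the step before it, did. Phosphoglycerate kinase pgk1 (MSTRG.19714), which makes the first ATP gained in glycolysis, was at 66.1, 60.7 and 63.9 FPKM in HFD and at 36.6, 44.6 and 47.3 FPKM in NFD. The lowest HFD library lay above the highest NFD library. The log2 fold change was 0.57 ± 0.19 (SE), with a 95% interval from 0.10 to 1.04. In limma the unadjusted p was 0.0244 and the adjusted p 0.763, so the difference did not pass over all genes. Under the alternative fits its log2 fold change lay between 0.47 and 0.65. Because the libraries did not overlap, leaving out a library could not reverse the direction, so the constant direction adds no support. The unadjusted p in limma was 0.0737 without HFD replicate 1, 0.0702 without HFD replicate 3 and 0.0549 without NFD replicate 1.

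Gapdh (MSTRG.18444), the step before pgk1, was at 1654, 1591 and 1534 FPKM in HFD and 1084, 1508 and 1941 FPKM in NFD. The HFD libraries lay inside the span of the NFD libraries. The log2 fold change was 0.12 ± 0.28 (SE, limma adjusted p = 0.982), and it was -0.10 without NFD replicate 1. Gapdhs (MSTRG.8287), a copy known as the testis form in mammals, was at 2.31, 0.765 and 2.68 FPKM in HFD and 0.963, 5.34 and 0.908 FPKM in NFD, with a log2 fold change of -0.03 ± 0.65 (SE). Its sign changed with the omission of HFD replicate 2 or NFD replicate 2.

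Pgk1 was also set against other abundant members within each library, a ratio that a single scaling factor per library does not change; quantile normalization can change it. All 4 ratios computed are given, and they were chosen after the values were seen. The ratio of pgk1 to gapdh was 0.0400, 0.0382 and 0.0417 in HFD and 0.0338, 0.0296 and 0.0243 in NFD, with no overlap between diets. The ratio of pgk1 to eno3 was 0.715, 0.826 and 0.546 in HFD and 0.487, 0.404 and 0.393 in NFD, again with no overlap. The ratios to tpi1b (1.62 ± 0.208 in HFD, 1.40 ± 0.355 in NFD) and to gpia (1.20 ± 0.308 in HFD and 0.961 ± 0.115 in NFD; SD of 3 libraries) overlapped. Since pgk1 itself did not overlap between diets, these ratios restate its difference in part, and nothing further is read from them.

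**Figure D3:**
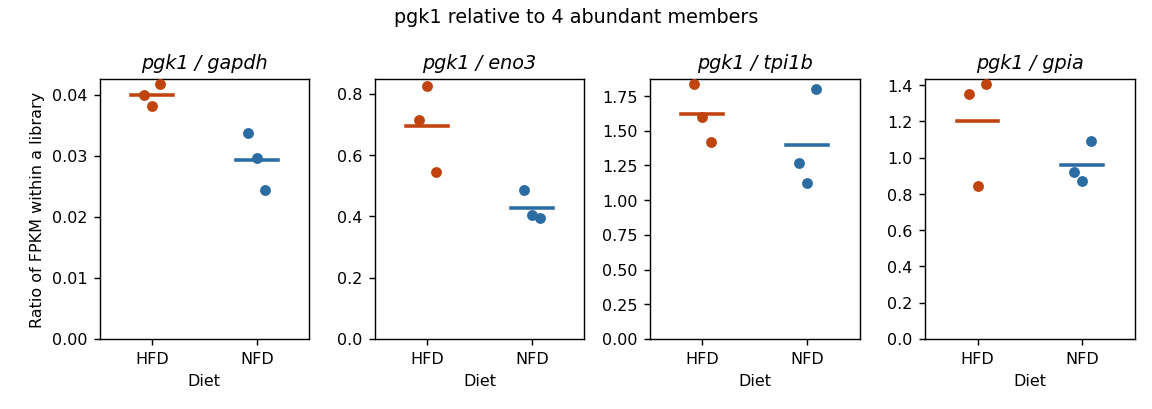
Ratio of the FPKM of pgk1 to that of gapdh, eno3, tpi1b and gpia within each library (vertical axes, from 0), with HFD left of NFD; points are libraries and lines are means of 3. The diets do not overlap in the ratios to gapdh and eno3 and overlap in the other 2.

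The enolases, which form phosphoenolpyruvate, included the other member without overlap. Eno1a (MSTRG.9993) was at 0.180, 0.0444 and 0.533 FPKM in HFD and 1.56, 0.633 and 0.564 FPKM in NFD. It was close to the filter: 1 HFD library and 3 NFD libraries reached 0.5 FPKM, so it was tested through the diet in which it was higher, and the nearest libraries of the 2 diets were HFD replicate 3 and NFD replicate 3. The log2 fold change was -0.90 ± 0.36 (SE), with an unadjusted p of 0.0448 and an adjusted p of 0.826 in limma. The added 0.5 FPKM shrinks the fold change of so low a gene, whether or not the difference is real. Under the alternative fits that kept the gene, the log2 fold change lay between -1.66 with a pseudocount of 0.1 and -0.60 with a pseudocount of 1 or without NFD replicate 1. The stricter filter dropped it. Because the libraries did not overlap, leaving out a library could not reverse the sign. The unadjusted p was 0.10 without HFD replicate 1, 0.125 without HFD replicate 2, 0.117 without NFD replicate 1 and 0.0513 without NFD replicate 2, and between 0.0514 and 0.0661 with no filter, with either other scaling and with the replicate block.

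The other enolases overlapped. Eno1b (ENSONIG00000014417) was at 0.822, 0.678 and 1.41 FPKM in HFD and at 0.526 and 1.21 FPKM in NFD replicates 1 and 2, and it was listed at 0 in NFD replicate 3. Its log2 fold change was 0.59 ± 0.47 (SE, limma adjusted p = 0.919), opposite in sign to that of eno1a. Eno3 (MSTRG.19241), the copy with nearly all of the enolase signal, was at 92.5, 73.6 and 117 FPKM in HFD and 75.1, 110 and 120 FPKM in NFD. Its log2 fold change was -0.11 ± 0.29 (SE, limma adjusted p = 0.982), and its sign changed with the omission of HFD replicate 2 or NFD replicate 3. Eno3 is also on the list of skeletal muscle markers; the other 15 gene IDs of that list summed to between 0.430 and 1.13 FPKM in HFD and between 0.261 and 2.49 FPKM in NFD, and 7 of them were at 0 in every library.

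The members found by name for the last steps were low in both diets, and no gene ID was named ldhba. The gene ID of the liver and red cell pyruvate kinase pklr (MSTRG.18918) also carries cyp11c1 and ENSONIG00000006481, which reached at most 0.0391 FPKM, and together they were at 1.15, 0.861 and 0.774 FPKM in HFD and 0.401, 0.914 and 1.03 FPKM in NFD. NFD replicate 1 was the lowest and the other 5 libraries were interleaved, with a log2 fold change of 0.19 ± 0.26 (SE) that was -0.05 without that library. Ldha (MSTRG.4019), the muscle-type lactate dehydrogenase subunit of mammals, was at 0.111, 1.24 and 0.118 FPKM in HFD and 0.352, 1.01 and 0.672 FPKM in NFD. HFD replicate 2 held the highest value of all and the other HFD libraries the lowest, with a log2 fold change of -0.40 ± 0.47 (SE). The heart-type subunit ldhbb was above 0 in HFD replicate 1 only, at 0.0083 FPKM.

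**Figure D4:**
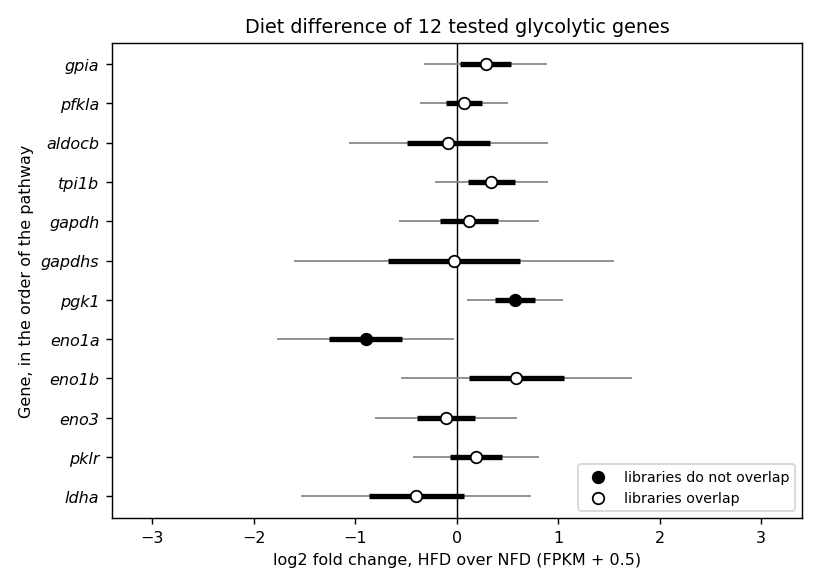
Log2 fold change of HFD over NFD on the FPKM + 0.5 scale (horizontal axis) for 12 tested members in pathway order (vertical axis); thick bars are the standard error, thin lines the 95% interval from limma, and filled points mark genes whose libraries do not overlap between diets. The intervals of pgk1 and eno1a leave out 0 and those of the other 10 genes shown include it; none passed the adjusted threshold.

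Over all steps together the diets overlapped in level. The members summed to 1876 ± 48.7 FPKM in HFD and 1774 ± 468 FPKM in NFD, and without gapdh to 282 ± 25.0 FPKM in HFD and 263 ± 43.3 FPKM in NFD (SD of 3 libraries). They made up 1.25% ± 0.150 of the summed FPKM of the mRNA table in HFD and 1.14% ± 0.390 in NFD. With gapdh, NFD replicate 1 had the lowest sum and NFD replicate 3 the highest, so the HFD sums lay within the span of the NFD sums. Without gapdh, NFD replicate 1 was again lowest, at 213 FPKM, and HFD replicate 3 was highest, at 309 FPKM, against 292 FPKM in NFD replicate 3. Relative to each gene's mean, the median deviation of the tested members on the log2 scale was 0.10, 0.01 and 0.19 in HFD. In NFD it was -0.28, 0.17 and -0.14, so NFD replicate 2 stood with the HFD libraries. Over all tested genes the same median was 0.057, -0.038 and -0.0053 in HFD and -0.125, 0.097 and 0.055 in NFD. The low place of NFD replicate 1 and the high place of NFD replicate 2 were thus not particular to the members.

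The genes with the pattern over the 6 libraries closest to that of pgk1 are given as a description. By the root mean square difference of centred log2 values, over 9204 genes and 6 libraries, the nearest was cav1 (MSTRG.16359), the coat protein of caveolae, at a difference of 0.0389. It was at 4.11, 3.95 and 4.14 FPKM in HFD and 2.28, 2.88 and 3.01 FPKM in NFD; that its diets do not overlap follows from its choice by likeness to pgk1. The next were HS3ST1 (ENSONIG00000020857), a heparan sulfate sulfotransferase, at 0.0730 and ENSONIG00000007929 (MSTRG.67) at 0.0734. HS3ST1 was near the filter, at 0.673, 0.614 and 0.600 FPKM in HFD and 0.229, 0.276 and 0.402 FPKM in NFD. It was thus tested through the diet in which it was higher, and its likeness to pgk1 depends on the added 0.5 FPKM. Within glycolysis the nearest to pgk1 were the pklr gene ID at 0.251, tpi1b at 0.254 and gapdh at 0.269.

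Genes that feed glycolysis or draw on it were described by 8 lists. In each list 0 tested members passed over all genes in limma. An unadjusted p under 0.05 in limma was found for 2 of 6 tested genes of gluconeogenesis, both higher in HFD. It was also found for 1 of 11 tested genes of pyruvate use and 1 of 8 of the pentose phosphate pathway, both lower in HFD. The other 5 lists, with 6, 3, 12, 10 and 5 tested genes, held 0 such genes. Over all tested genes the share was 6.02%, and with lists this small the counts are descriptions. By direction it was 2.67% higher in HFD and 3.35% lower. For uptake, other isoforms, regulators, pyruvate, gluconeogenesis, glycogen, pentose phosphate and fructose, 1, 0, 1, 3, 2, 1, 1 and 0 tested genes had no overlap between diets. Over all tested genes 11.6% had none. The genes named below were chosen by the smallest p of their list, so a lack of overlap follows in part from that choice.

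Among the listed genes with an unadjusted p under 0.05 in limma, the largest log2 fold change was that of a gene of glucose release, which runs against glycolysis. Glucose-6-phosphatase g6pca.1 was at 24.9, 28.6 and 21.1 FPKM in HFD and 11.7, 7.25 and 13.4 FPKM in NFD (log2 fold change 1.20 ± 0.28 SE, limma adjusted p = 0.585). Its tandem copy g6pca.2, named after its values were seen, was at 20.4 ± 5.91 FPKM in HFD and 22.4 ± 12.8 FPKM in NFD (SD of 3 libraries) and did not follow it. How reads were divided between these copies is not given in the sources used here, so the values of each are uncertain to that extent. Fructose-bisphosphatase fbp1b, which reverses the phosphofructokinase step, had a log2 fold change of 0.77 ± 0.25, and the mitochondrial carboxykinase pck2 0.64 ± 0.36 (SE, limma adjusted p = 0.753 and 0.898). Of the 6 tested genes in this list 4 had a log2 fold change above 0 and 2 below, with a median of 0.34. Those below were slc37a4b at -0.60 ± 0.37 and slc37a4a at -0.14 ± 0.78 (SE), both with overlapping libraries and named after their values were seen. The cytosolic carboxykinase pck1, which missed the filter and is named after its values were seen, was at 0.408, 7.01 and 1.19 FPKM in HFD and 0.265 and 0.175 FPKM in NFD replicates 2 and 3, and was listed at 0 in NFD replicate 1.

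Uptake and trapping of glucose gave 2 genes above and 4 below 0 among 6 tested, with a median log2 fold change of -0.13. The sugar kinase adpgk had a log2 fold change of -0.31 ± 0.18 (SE). It was at 0.302, 0.507 and 0.484 FPKM in HFD and 0.610, 0.656 and 0.685 FPKM in NFD, without overlap. It was close to the filter of 0.5 FPKM, which in HFD only replicate 2 reached. The hexokinases hk2 and hk1 had log2 fold changes of 0.29 ± 0.24 and -0.33 ± 0.37 (SE). Hk2 was at 4.56 ± 0.379 FPKM in HFD and 3.73 ± 1.18 FPKM in NFD (SD of 3 libraries), with overlapping libraries. In 3 tested genes for other isoforms, pkma, pfkpa and pfkma, the log2 fold changes were 0.27 ± 0.24, 0.41 ± 0.40 and -0.19 ± 0.37 (SE). Muscle-type phosphofructokinase pfkma was at 3.76 ± 1.28 FPKM in HFD and 4.53 ± 2.22 FPKM in NFD (SD, n = 3), above the liver-type pfkla in each of the 6 libraries.

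Regulators of glycolysis had 7 of 12 tested genes above 0 and a median of 0.07. The bisphosphatase tigara, which lowers the activator of phosphofructokinase, was at 1.60, 2.40 and 1.75 FPKM in HFD and 2.44, 3.10 and 2.58 FPKM in NFD without overlap (log2 fold change -0.42 ± 0.20 SE, limma adjusted p = 0.876). The forkhead factor foxk2 and the oxygen sensor egln2 had log2 fold changes of 0.52 ± 0.27 and 0.35 ± 0.26 (SE) with overlapping libraries.

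For pyruvate, 3 of 11 tested genes were above 0 and 8 below, with a median of -0.12. Pdha1a, the alpha subunit of pyruvate dehydrogenase, was at 8.98, 9.17 and 11.7 FPKM in HFD and 13.4, 14.2 and 17.0 FPKM in NFD. Its libraries did not overlap, and the log2 fold change was -0.56 ± 0.20 (SE, limma adjusted p = 0.784). The kinase pdk1, which switches that complex off, also had no overlap, at 5.12 ± 0.439 FPKM in HFD and 6.24 ± 0.730 FPKM in NFD (SD of 3 libraries). The phosphatase pdp2 had a log2 fold change of 0.31 ± 0.22 (SE).

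The side branches had both signs. Of 8 tested genes of the pentose phosphate pathway 3 were above 0, and its transketolase tktb, which returns sugars to glycolysis, was at 59.1, 49.1 and 55.5 FPKM in HFD and 103, 99.5 and 74.2 FPKM in NFD, without overlap (log2 fold change -0.74 ± 0.22 SE, limma adjusted p = 0.740). The pathway's transaldolase taldo1 had a log2 fold change of -0.24 ± 0.21 (SE). Of 10 tested genes of glycogen 2 were above 0. UDP-glucose pyrophosphorylase ugp2a was at 274, 257 and 296 FPKM in HFD and 231, 214 and 159 FPKM in NFD without overlap. Pgm2 and the kinase subunit phkg2 had log2 fold changes of -0.49 ± 0.24 and 0.54 ± 0.27 (SE) with overlap. Phkg2 was close to the filter, at 0.989, 0.644 and 0.549 FPKM in HFD and 0.305, 0.620 and 0.145 FPKM in NFD. In NFD only replicate 2 reached 0.5 FPKM, so phkg2 was tested through the diet in which it was higher. Of 5 tested genes of fructose and glycerol entry 2 were above 0. Khk, the fructose kinase, was listed at 0 in 2 HFD libraries and 1 NFD library. Sord and galk1 had log2 fold changes of 0.27 ± 0.28 and 0.13 ± 0.34 (SE).

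**Figure D5:**
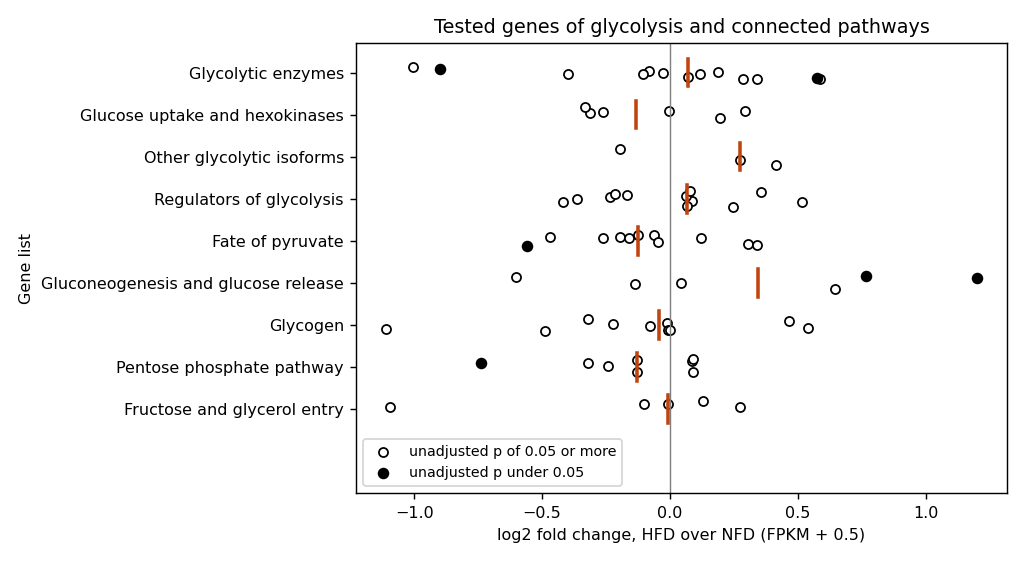
Log2 fold change of HFD over NFD (horizontal axis) for the tested genes of glycolysis and of 8 connected lists (vertical axis); each point is a gene, filled where the unadjusted p in limma was under 0.05, and the coloured bar is the list's median. Filled points are pgk1 and eno1a in glycolysis, g6pca.1 and fbp1b in gluconeogenesis, pdha1a for pyruvate and tktb in the pentose phosphate pathway, and none passed after adjustment.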

How the data were processed

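Per the labels' protocols, ribosomal RNA was removed from the liver RNA before libraries were made. Both deposited tables hold FPKM made by the authors, per the file headers. Tools in the submitters' processing notes, listed there without roles, are HISAT2 2.0.4 and StringTie 1.3.0, beside edgeR 3.22.3, cutadapt 1.10 and FastQC 0.10.1. Genome build and strand setting: not given in the sources used here. Entries of 0.0001, the table's mark for no estimate, became 0. Among transcripts under 0.05 FPKM in both of 2 libraries, at most 2.56% shared a ratio (bins of 0.02 in the natural log), so reads could not be recovered and no counting interval is given.

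Transcripts were summed per gene ID. Members were taken by gene name with a fixed pattern, and 0 transcripts of the lncRNA table carry a member's gene ID. Log2(FPKM + 0.5) of the 9204 gene IDs with at least 0.5 FPKM in at least 3 libraries was modelled in R 4.3.3 by limma 3.58.1 (lmFit, eBayes with a variance trend), diet as the only term, two-sided, adjusted by Benjamini-Hochberg over all genes. Fold changes are on that scale, which shrinks those of low genes. The fit was tested on simulated data. Members, lists and tests were chosen with earlier results of these data known. Some members and listed genes are not reported here, although counts include them; the remaining members are named, and of each connected list, up to 3 tested genes with the smallest p are named, and other genes are said to be chosen after their values were seen. Alternatives changed the pseudocount, the filter, the scaling, the variance prior or the choice of transcript rows, added a replicate block or left out each library. Figures were drawn with matplotlib 3.10.9.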

Additional observations from a re-analysis of the deposited data

How the results depend on the processing

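With all libraries, 0 members and 0 of all genes passed under each pseudocount, filter, scaling, variance prior and summing tried, and under the replicate block. Leaving out 1 library at a time gave between 0 and 4 genes of all past the threshold, with the 4 found without NFD replicate 2, and 0 members; the members' median log2 fold change ranged from -0.05 (without NFD replicate 1) to 0.22 (without NFD replicate 2). Of 188 single-gene results under alternatives, 178 kept their sign and 10 reversed it, each on the omission of 1 library, and the cause was not tested. Many of the 178 could not have reversed. Changing the filter or the variance prior, or adding the replicate block, leaves a gene's log2 fold change as it was. The choice of transcript rows changed it only for the pklr gene ID. The count is therefore no measure of robustness. Leaving out 1 library at a time, log2 fold changes ranged from -0.41 to 0.24 for aldocb (above 0 without HFD replicate 2, NFD replicate 1 or NFD replicate 2), from -0.38 to 0.65 for gapdhs (above 0 without HFD replicate 2 or NFD replicate 2) and from -0.31 to 0.058 for eno3 (above 0 without HFD replicate 2 or NFD replicate 3). They ranged from -0.10 to 0.32 for gapdh and from -0.050 to 0.33 for the gene ID ENSONIG00000006481/cyp11c1/pklr, both below 0 without NFD replicate 1, and from -0.052 to 0.17 for pfkla, below 0 without NFD replicate 3. Same-numbered libraries did not deviate together from their diet means (correlations across genes of -0.0052, -0.201 and -0.106). Differently numbered libraries gave correlations between -0.134 and 0.204. The deviations of 3 libraries sum to 0 within each diet, so these correlations depend on one another. With so few libraries, this check did not settle whether the numbers mark pairs. With the replicate number as a block, 412 genes in place of 554 had an unadjusted p under 0.05 in limma, and pgk1 had an unadjusted p of 0.0834 and an adjusted p of 0.9997. With 3 libraries per diet and unknown depth, genes near 0.5 FPKM such as eno1a, eno1b and ldha are the least certain.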

Other observations

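NFD replicate 3 held the highest value of glycogen genes that were chosen after their values were seen and are given as values. The glycogen-targeting subunits of protein phosphatase ppp1r3b and ppp1r3ca were at 109 and 332 FPKM in that library. In the other libraries ppp1r3b was at 7.63, 19.0 and 32.9 FPKM in HFD and 11.9 and 38.7 FPKM in NFD, and ppp1r3ca was at 99.6, 158 and 135 FPKM in HFD and 61.2 and 104 FPKM in NFD. The glucose transporter slc2a2, also chosen after its values were seen, was high in HFD replicate 2 (111 FPKM) and NFD replicate 3 (103 FPKM) and between 38.5 and 49.0 FPKM in the other 4 libraries. HFD replicate 2 also had the highest pck1 of the 6 libraries.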
